A study of Mus musculus with 6 samples.

Results

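Type I interferon-stimulated genes were followed in E0771 cells, a mouse mammary carcinoma line, after contact with activated CD8 T cells. They are 39 antiviral genes, named by symbol, of 28063 genes in the deposited count table. All 39 were found there, and all 39 passed the filter on low counts. The line had been given an empty vector (Vector), Malt1 of wild-type sequence (Malt1_WT) or a mutant of Malt1 whose name, PD, the labels leave unexplained (Malt1_PD), and 2 libraries were made per population. Every population had met T cells at 3 effector cells per target cell for 12 hours and was lysed 6 hours after being detached and seeded again. No library of cells without T cells was analysed here, so induction by the T cells was not measured. Each form of Malt1 was a population of its own, so form and population cannot be told apart. Whether the libraries of a group are separate cultures is not stated by the labels, and p-values therefore reflect only how far these libraries differ, which may be a technical spread.

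Type I interferon binds the receptor IFNAR, whose kinases JAK1 and TYK2 phosphorylate STAT proteins. With IRF9 these form a complex that binds interferon-stimulated response elements (ISRE) in the promoters of antiviral genes. The products sense viral RNA, degrade or edit nucleic acids, block translation of foreign RNA, and restrain virus assembly and release. Interferon-gamma, which activated CD8 T cells secrete, acts mainly through another promoter element (GAS) and raises many of the same genes. MALT1 is a scaffold and protease that activates NF-kB, a factor that also acts on the interferon beta gene.

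The promoters were searched for the element as exact letters in a fixed window, so a gene without a match may still carry one. RefSeq promoters (GRCm38.p6, 250 bases before to 50 after a start site) were at hand for 29 of the 39 genes. Mx1, Mx2, Oas1b, Oas2, Dhx58, Usp18, Ifi27l2a, Parp9, Parp14 and Rtp4 had no entry. The ISRE core, searched on both strands as GAAA, any 2 bases and GAAA, was in 13 of the 29 (44.8%), and in 3.99% of the 27025 genes with a promoter in the table (3.44% of 32851 promoters). The 13 were Bst2, Ddx58, Ddx60, Eif2ak2, Ifih1, Ifit1, Ifit3, Ifit3b, Isg15, Oas1a, Oas1g, Oas3 and Rsad2. The GAS letters TTCNNNGAA, a palindrome in these letters, were in 6 of the 29 against 9.55% of genes. The NF-kB site known as the kB consensus was in 3 of the 29 (Ifit2, Isg20 and Oasl1) against 6.55%. Capitals mark the ISRE core in 90 bases before the start sites, on the strand of the gene, of the neighbours Rsad2 and Cmpk2, of 3 oligoadenylate synthetase genes and of Isg15. The printed stretches are examples, and how many of them hold a match does not describe the members. Among the members not printed, Ifit1 and Ifit3 held 2 matches each, and Lgals3bp and Irf7 held 0.
Rsad2 (chr12:26456543-26456632, minus strand, -180 to -91 from the start): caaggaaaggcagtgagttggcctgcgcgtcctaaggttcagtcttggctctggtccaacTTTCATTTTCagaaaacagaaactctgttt
Cmpk2 (chr12:26469125-26469214, plus strand, -90 to -1): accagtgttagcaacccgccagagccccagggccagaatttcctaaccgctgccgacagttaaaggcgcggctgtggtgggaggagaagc
Oas1a (chr5:120907526-120907615, minus strand, -90 to -1): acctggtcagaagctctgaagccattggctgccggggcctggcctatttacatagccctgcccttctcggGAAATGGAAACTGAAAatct
Oas1g (chr5:120887614-120887703, minus strand, -90 to -1): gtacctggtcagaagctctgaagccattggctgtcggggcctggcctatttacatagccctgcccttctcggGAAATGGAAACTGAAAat
Oas3 (chr5:120777660-120777749, minus strand, -90 to -1): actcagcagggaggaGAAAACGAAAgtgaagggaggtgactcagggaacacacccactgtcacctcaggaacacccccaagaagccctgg
Isg15 (chr4:156200819-156200908, minus strand, -90 to -1): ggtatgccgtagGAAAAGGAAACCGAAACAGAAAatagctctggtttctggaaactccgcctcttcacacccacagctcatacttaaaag
Oas1a and Oas1g each held 2 overlapping matches, Isg15 held 3, and Rsad2 and Oas3 held 1 each. The Rsad2 match lies on the opposite strand. The Cmpk2 promoter held no match in its 300 bases, which says only that these letters are not in this window.

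The libraries held 14045390 to 19962014 counts, and the 39 genes took between 0.196% and 0.214% of them. Counts are given as CPM, counts scaled to library size with a correction for library composition (TMM), where 3 counts equal 0.150 to 0.214 CPM. Malt1 itself had 23.8 and 31.3 CPM for Vector, 67.2 and 82.1 CPM for Malt1_WT, 106 and 95.7 CPM for Malt1_PD. Of 17 T cell markers, 13 had a row of counts, and Cd3e, Trbc1, Cd2 and Gzmb had none. Their sum was 2.42 and 2.52 CPM for Vector, 1.49 and 2.44 CPM for Malt1_WT, 2.40 and 2.26 CPM for Malt1_PD. Most of it was Lck, without which the sum was at most 1.10 CPM in any library. Of the markers of the labelled carcinoma cells, Krt8 had 1742 to 2204 counts and Epcam 110 to 134, while Krt18, Krt19, Cdh1 and Cldn4 had at most 12. Krt14 had 6 and 1 counts for Vector, 10 and 23 for Malt1_WT, 8 and 21 for Malt1_PD. The mesenchymal marker sum was 4476 to 5334 CPM, mostly Vim. Within it Col1a1 had 31.0 and 36.4 CPM for Vector, 54.8 and 61.3 CPM for Malt1_WT, 56.8 and 53.0 CPM for Malt1_PD. Myeloid markers, of which 9 of 10 had counts, include the member Bst2. Without it their sum was 24.6 and 22.2 CPM for Vector, 18.4 and 20.5 CPM for Malt1_WT, 17.8 and 17.8 CPM for Malt1_PD. All 4 Malt1 libraries lay below both Vector libraries in this sum and above both in Krt14 and Col1a1, and the part of these markers in the results was not tested.

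Vector replicate 1 stood apart in a way that touches these genes. The difference between the libraries of a group, as log2 of replicate 1 over replicate 2, followed gene length across the 39 genes, with a Spearman's rho of -0.85 for Vector, -0.41 for Malt1_WT, -0.06 for Malt1_PD. These are descriptions over genes of the same libraries. Across 9566 well-counted genes of all kinds rho was -0.67, -0.54 and 0.05. Helz2, a helicase gene and at 11529 nt the longest member, had 124 CPM in Vector replicate 1 and 200 CPM in replicate 2. The short genes Bst2 (903 nt) and Isg15 (756 nt) went the other way, with 246 against 186 CPM and 67.0 against 51.8 CPM. Values without 1 Vector library are therefore given for members whose sign or size it altered, though not for all of them. Vector then has 1 library, which is assumed to vary like the other groups. Between the fits without replicate 1 and without replicate 2, the log2 fold change against Vector had opposite signs for 10 of the 39 members in Malt1_PD and for 14 in Malt1_WT. In Malt1_PD these were Bst2, Eif2ak2, Helz2, Ifih1, Ifit3b, Isg15, Parp12, Parp14, Samd9l and Trim25. In Malt1_WT they were Bst2, Eif2ak2, Helz2, Ifi27l2a, Ifi35, Ifit3b, Isg15, Isg20, Oas2, Oasl2, Parp12, Parp14, Parp9 and Samd9l.

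**Figure D1:**
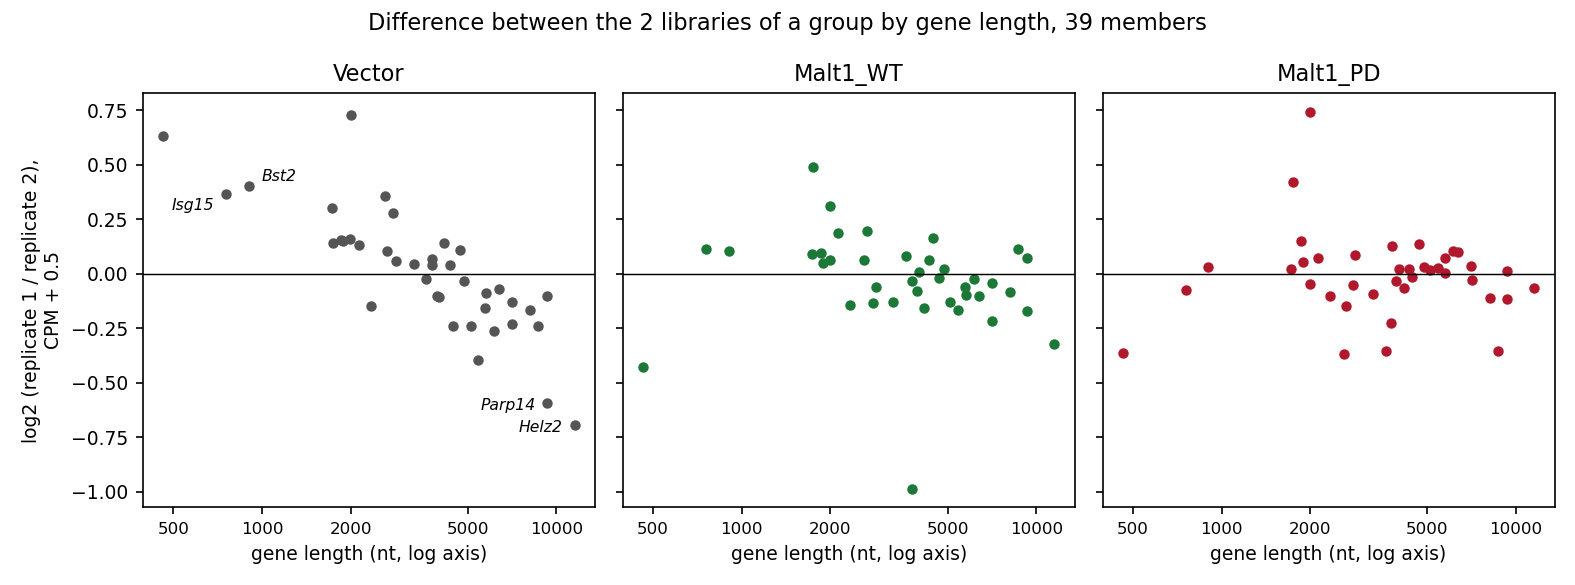
Log2 ratio of replicate 1 to replicate 2 (vertical axis, CPM + 0.5) against gene length in nt (log axis) for the 39 genes, a panel per group. In Vector most points descend from above 0 for short genes to below 0 for long ones, with Helz2 and Parp14 lowest, and the Malt1_PD points show no such slope.

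Levels between genes were compared per length, as RPKM (CPM per kilobase of exon). Averaged over the 6 libraries, 8 genes lay at 20 RPKM or more, 21 between 5 and 20, 7 between 1 and 5, and 3 under 1. The median was 9.65 RPKM, and 28 of the 39 lay above the median of all 14675 genes tested. Bst2, the gene of tetherin, which holds budding virions at the cell surface, led with 235 RPKM, above 98.9% of genes tested. Isg15, the gene of a ubiquitin-like modifier, followed at 79.8 RPKM, and Lgals3bp, which encodes a secreted galectin-binding glycoprotein, at 47.6 RPKM. Parp12, Ifi35, Oas1a, Trim25 and Samd9l lay together between 24.3 and 27.3 RPKM, and the ranges of their 6 libraries overlapped. At the low end were Oas2 (0.894 RPKM), Mx1 (0.679 RPKM) and Ifit3b (0.462 RPKM). Ifit3b and some other members share much of their sequence with a related gene. Of all 50-base words in the transcripts of a gene, 51.2% in Ifit3 and 45.0% in Ifit3b also occur in another gene, chiefly each other. For Oas1a and Oas1g the shares were 57.6% and 45.7%, so the split of reads inside these pairs is less certain.

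**Figure D2:**
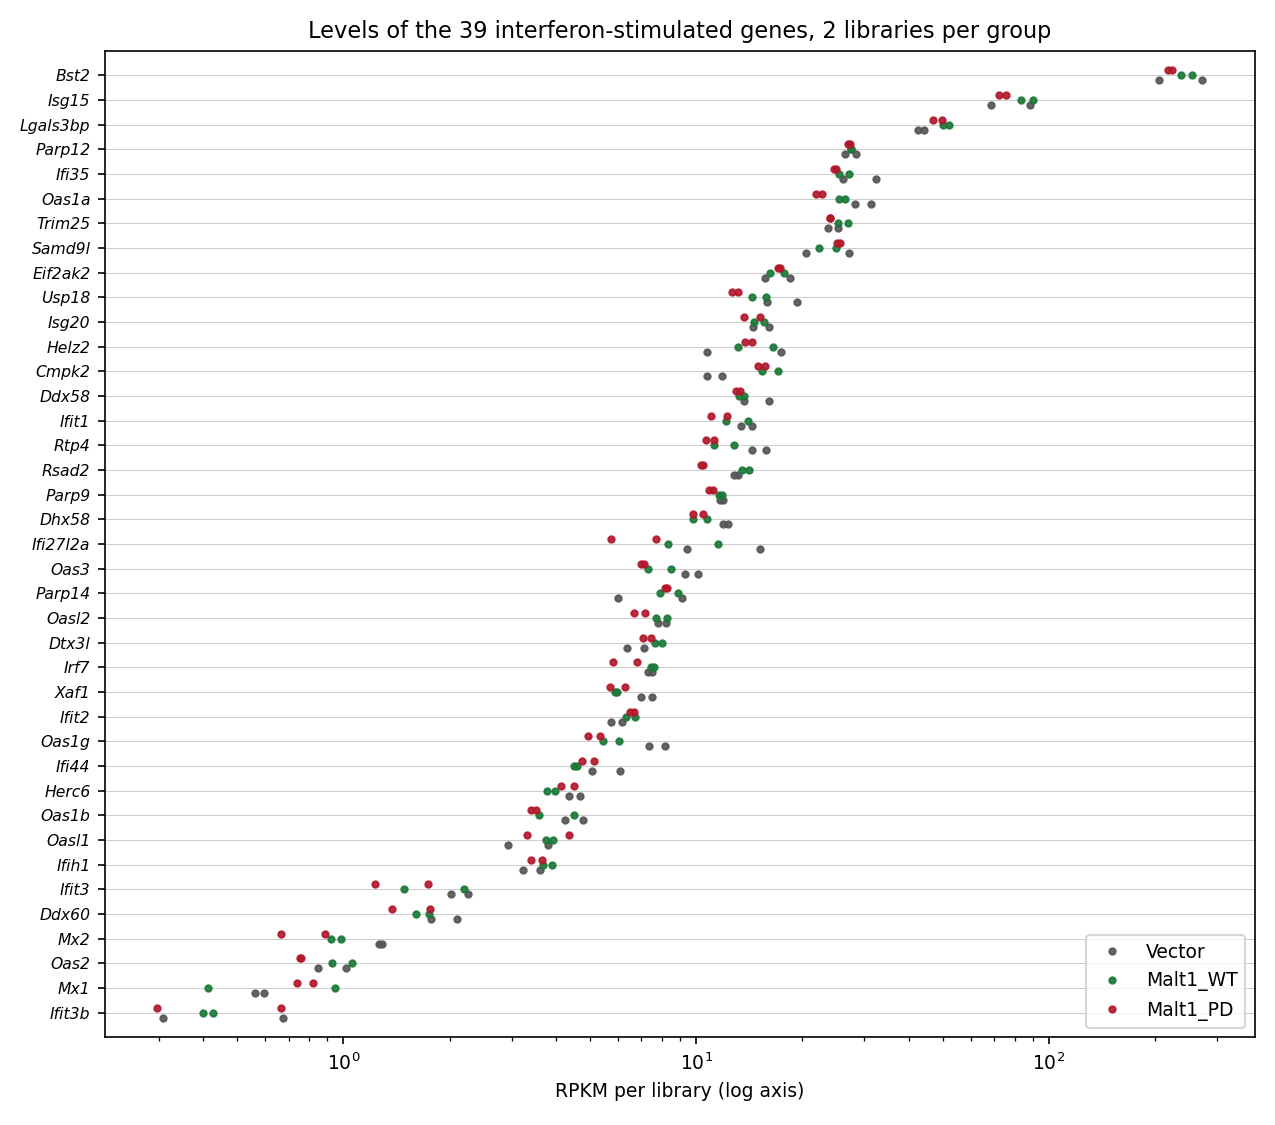
RPKM of each of the 39 genes (rows) in each of the 6 libraries (points, log axis), coloured by group and sorted by the mean. Bst2, Isg15 and Lgals3bp lie to the right of the other genes in all 6 libraries, and Mx1, Oas2 and Ifit3b lie near or below 1.

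Malt1_PD cells were compared with Vector cells. None of the 39 genes passed the quasi-likelihood test of edgeR, where the threshold is a p of 0.05 adjusted over all genes by Benjamini-Hochberg and 0.00681% of all genes (1 of 14675, Malt1) passed. DESeq2 and limma-voom also called 0 of the 39. At an unadjusted p under 0.05, 12 members were lower and 1 was higher, where 4.88% of all genes were lower and 3.73% higher. Both Malt1_PD libraries lay below both Vector libraries for 20 of the 39, against 19.7% of all genes, and above both for 4, against 18.4% of all genes. The median log2 fold change was -0.17 over the 39 and -0.0011 over all genes, and 28 of the 39 lay below 0. The calls depended on the processing, and single values on the Vector library left out. Without Vector replicate 1, 30 of the 39 lay below 0, and without Vector replicate 2, 26 did. These genes were chosen with earlier results of the same libraries known, so the counts describe them and are no independent support.

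Of the 8 members with the smallest p, 3 were oligoadenylate synthetase genes (Oas1a, Oas1g and Oas3), whose products make the messenger that activates RNase L. Oas1a had 59.0 and 53.1 CPM in Vector against 42.8 and 41.2 CPM in Malt1_PD. The groups did not overlap, and the level was 0.750 of Vector, a log2 fold change of -0.42 ± 0.09 (SE; edgeR adjusted p = 0.279). Oas1g, its neighbour on chromosome 5 and near copy, had 17.2 and 19.1 against 11.6 and 12.5 CPM, which is -0.59 ± 0.13 (edgeR adjusted p = 0.279). Oas3 had 65.5 and 71.7 against 49.4 and 50.5 CPM, -0.46 ± 0.10 (edgeR adjusted p = 0.279). It is 7069 nt long and was lower in Vector replicate 1 than in replicate 2, so leaving that library out widened the difference to -0.52 (edgeR adjusted p = 0.0423). Without Vector replicate 2 it was -0.39 (edgeR adjusted p = 0.0475). Oas1b, which laboratory mouse strains carry in a truncated form, stood at -0.38 ± 0.18, Oas2 at -0.30 ± 0.22 and Oasl2 at -0.21 ± 0.09. Oasl1, a relative that represses translation of Irf7, stood at 0.19 ± 0.19, and Eif2ak2, the gene of the RNA-activated kinase PKR, at 0.01 ± 0.10. In 6 of these 8 genes both Malt1_PD libraries were below both Vector libraries, as in 19.7% of all genes.

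Other members with small p-values in this comparison belong to different antiviral functions. Rtp4, which encodes a receptor chaperone, had 33.7 and 30.8 CPM in Vector and 23.9 and 22.7 CPM in Malt1_PD, which is -0.47 ± 0.11 (edgeR adjusted p = 0.318). Usp18, the protease that removes ISG15 from proteins and dampens receptor signalling, had 53.9 and 44.4 against 35.3 and 36.5 CPM. Its log2 fold change was -0.45 ± 0.12 (edgeR adjusted p = 0.369). Without Vector replicate 1 Usp18 stood at -0.30, and without replicate 2 at -0.58. Mx2 belongs to the dynamin-like antiviral GTPase genes but is labelled a polymorphic pseudogene in the deposited counts. It had 4.56 and 4.65 against 2.40 and 3.21 CPM, -0.71 ± 0.23 (edgeR adjusted p = 0.478). These 3 genes were named for their small p. In each, both Malt1_PD libraries lay below both Vector libraries, as in 19.7% of all genes. The neighbour of Mx2, Mx1, at 2.25 and 2.13 against 3.10 and 2.79 CPM, lay on the other side of Vector, at 0.43 ± 0.38.

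Rsad2 and Cmpk2 lay on opposite sides of Vector in Malt1_PD. They lie back to back on chromosome 12, 12751 bases apart in GENCODE M21, with Rsad2 on the minus strand and Cmpk2 on the plus strand. Rsad2 encodes viperin, which makes a chain-terminating analogue of CTP, and Cmpk2 a mitochondrial kinase that supplies pyrimidine nucleotides. Rsad2 had 57.0 and 55.5 CPM for Vector and 45.4 and 44.6 CPM for Malt1_PD, a log2 value of -0.32 ± 0.08 (edgeR adjusted p = 0.369). Cmpk2 had 49.3 and 44.6 CPM in Vector and 62.2 and 65.1 CPM in Malt1_PD, 0.44 ± 0.10 (edgeR adjusted p = 0.279). Neither gene's groups overlapped. Of all genes, 19.7% lay apart and lower in Malt1_PD, as Rsad2 did, and 18.4% apart and higher, as Cmpk2 did. Cmpk2 was past the threshold without Vector replicate 1 (0.51, edgeR adjusted p = 0.0432) and without Vector replicate 2 (0.38, edgeR adjusted p = 0.0482). The ratio of Rsad2 to Cmpk2, formed after their values were seen and so not tested, was 1.16 and 1.24 for Vector, 0.960 and 0.823 for Malt1_WT, 0.729 and 0.686 for Malt1_PD.

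**Figure D3:**
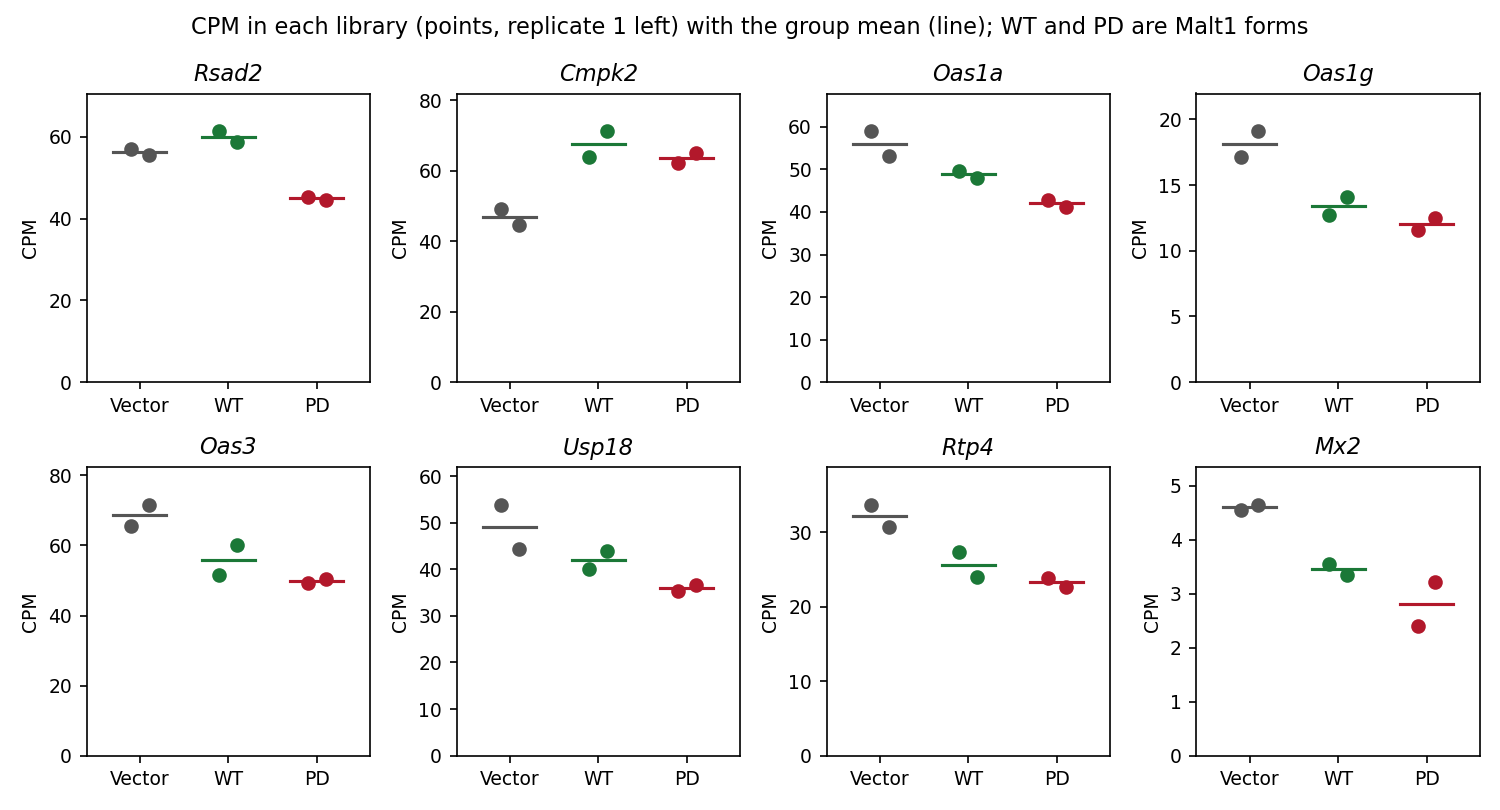
CPM (vertical axis, from 0) in each library (points, replicate 1 at the left) with the group mean (line) for 8 genes, the WT and PD groups being the Malt1 forms. Rsad2 is lowest in Malt1_PD (45.4 and 44.6 CPM) while its neighbour Cmpk2 is lowest in Vector (49.3 and 44.6 CPM).

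The remaining members are given for Malt1_PD against Vector. The IFIT genes, whose products bind foreign RNA ends, lay on both sides of 0. Ifit1 was at -0.26 ± 0.11, Ifit3 at -0.53 ± 0.29 and Ifit3b at -0.04 ± 0.54, and Ifit2 at 0.15 ± 0.10. Among the cytoplasmic RNA sensors, Ddx58 (RIG-I) was at -0.17 ± 0.10, Dhx58 (LGP2) at -0.26 ± 0.10 and Ifih1 (MDA5) at 0.05 ± 0.11. Ddx58 stood at -0.28 without Vector replicate 1 and at -0.05 without replicate 2. The 5 genes of the ISG15 system, counting the transcription factor gene Irf7, lay between -0.45 for Usp18 and -0.03 for Trim25, a ubiquitin ligase gene that acts on RIG-I. Isg15 itself stood at -0.09 ± 0.13, at 0.11 without Vector replicate 1 and at -0.26 without replicate 2. Trim25 stood at 0.02 without Vector replicate 2. Bst2 stood at -0.12 ± 0.13, at 0.10 without Vector replicate 1 and at -0.30 without replicate 2. The ADP-ribosyltransferase genes and Dtx3l, the ligase partner of Parp9, lay between -0.10 and 0.12. The highest of them, Parp14, stood at -0.15 without Vector replicate 1 and at 0.46 without replicate 2. Ifi27l2a, the shortest member at 463 nt, had the lowest log2 fold change (-0.87 ± 0.31), from 7.04 and 4.37 CPM to 2.66 and 3.57 CPM. That value was -0.49 without Vector replicate 1, where Mx2 at -0.72 was lower, and -1.17 without replicate 2 (edgeR adjusted p = 0.0229). Xaf1, a gene with a role in apoptosis, was at -0.27 ± 0.10 and Lgals3bp at 0.16 ± 0.08. Ifi35 was at -0.24 ± 0.12, at -0.08 without Vector replicate 1 and at -0.38 without replicate 2. Ifi44 was at -0.17 ± 0.12, at -0.30 without Vector replicate 1 and at -0.03 without replicate 2. Among the helicase, nuclease and SAM-domain genes, Ddx60 was at -0.30 ± 0.16, Isg20 at -0.09 ± 0.11 and Samd9l at 0.09 ± 0.13. Helz2 was at 0.0011 ± 0.21, at -0.31 without Vector replicate 1 and at 0.40 without replicate 2. Samd9l stood at -0.09 and 0.31 in the same fits.

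Malt1_WT cells were compared with Vector cells, the same 2 Vector libraries as before. Again 0 of the 39 genes passed edgeR's threshold, where 0.00681% of all genes did (1 gene, Cd274), and DESeq2 and limma-voom called 0. At an unadjusted p under 0.05, 6 members were lower and 2 higher, against 3.80% and 3.30% of all genes. Both Malt1_WT libraries lay below both Vector libraries for 11 members and above for 6, against 17.1% and 15.5% of all genes. The median log2 fold change was -0.011 over the 39 and -0.0012 over all genes, and 23 of the 39 lay below 0. Without Vector replicate 1, 23 of the 39 lay below 0, and without Vector replicate 2, 21 did. Helz2, the longest member, stood at -0.23 without Vector replicate 1 and at 0.48 without replicate 2.

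Cmpk2 had the smallest p of the members, with 63.9 and 71.3 CPM in Malt1_WT above 49.3 and 44.6 CPM in Vector. Its level was 1.44 times Vector, a log2 fold change of 0.53 ± 0.10 (edgeR adjusted p = 0.263). It passed the threshold under 5 of 14 alternatives, among them without Vector replicate 1 (0.60, edgeR adjusted p = 0.0272) and without Vector replicate 2 (0.46, edgeR adjusted p = 0.0250). Lgals3bp, at 142 and 148 against 126 and 121 CPM, stood at 0.24 ± 0.08 (edgeR adjusted p = 0.585). Rsad2, at 61.4 and 58.6 CPM, lay slightly above Vector, at 0.09 ± 0.08.

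On the lower side in Malt1_WT, Oas1g had 12.7 and 14.1 CPM, below the 17.2 and 19.1 of Vector, which is -0.43 ± 0.13 (edgeR adjusted p = 0.534). Rtp4 had 27.3 and 24.0 CPM, -0.33 ± 0.11, and Oas3 had 51.6 and 60.0 CPM, -0.29 ± 0.10. Xaf1 had 27.6 and 28.0 CPM against 35.2 and 32.7 CPM, -0.29 ± 0.10. Dhx58, the sensor that modulates RIG-I and MDA5, had 32.0 and 35.1 CPM against 40.3 and 39.1 CPM, -0.24 ± 0.10. Ifi44 had 27.6 and 28.1 CPM against 31.0 and 37.2 CPM, -0.29 ± 0.12. That value was -0.42 without Vector replicate 1 and -0.15 without replicate 2. These 6 lower genes were named for their small p. In each, both Malt1_WT libraries lay below both Vector libraries, as in 17.1% of all genes. Their edgeR adjusted p-values ran up to 0.665. Oas1a stood at -0.20 ± 0.09, Mx2 at -0.42 ± 0.22, Herc6, which encodes the ligase that attaches ISG15 in mice, at -0.22 ± 0.10, and Usp18 at -0.22 ± 0.11. Without Vector replicate 1 Usp18 stood at -0.07 and Oas1a at -0.12, and without replicate 2 at -0.35 and -0.27. The PARP genes and Dtx3l lay between -0.01 and 0.21, and the IFIT genes between -0.25 and 0.13. Within these ranges Parp14 stood at -0.11 without Vector replicate 1 and at 0.49 without replicate 2 (edgeR adjusted p = 0.0182), and Ifit3b at 0.41 and -0.71.

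**Figure D4:**
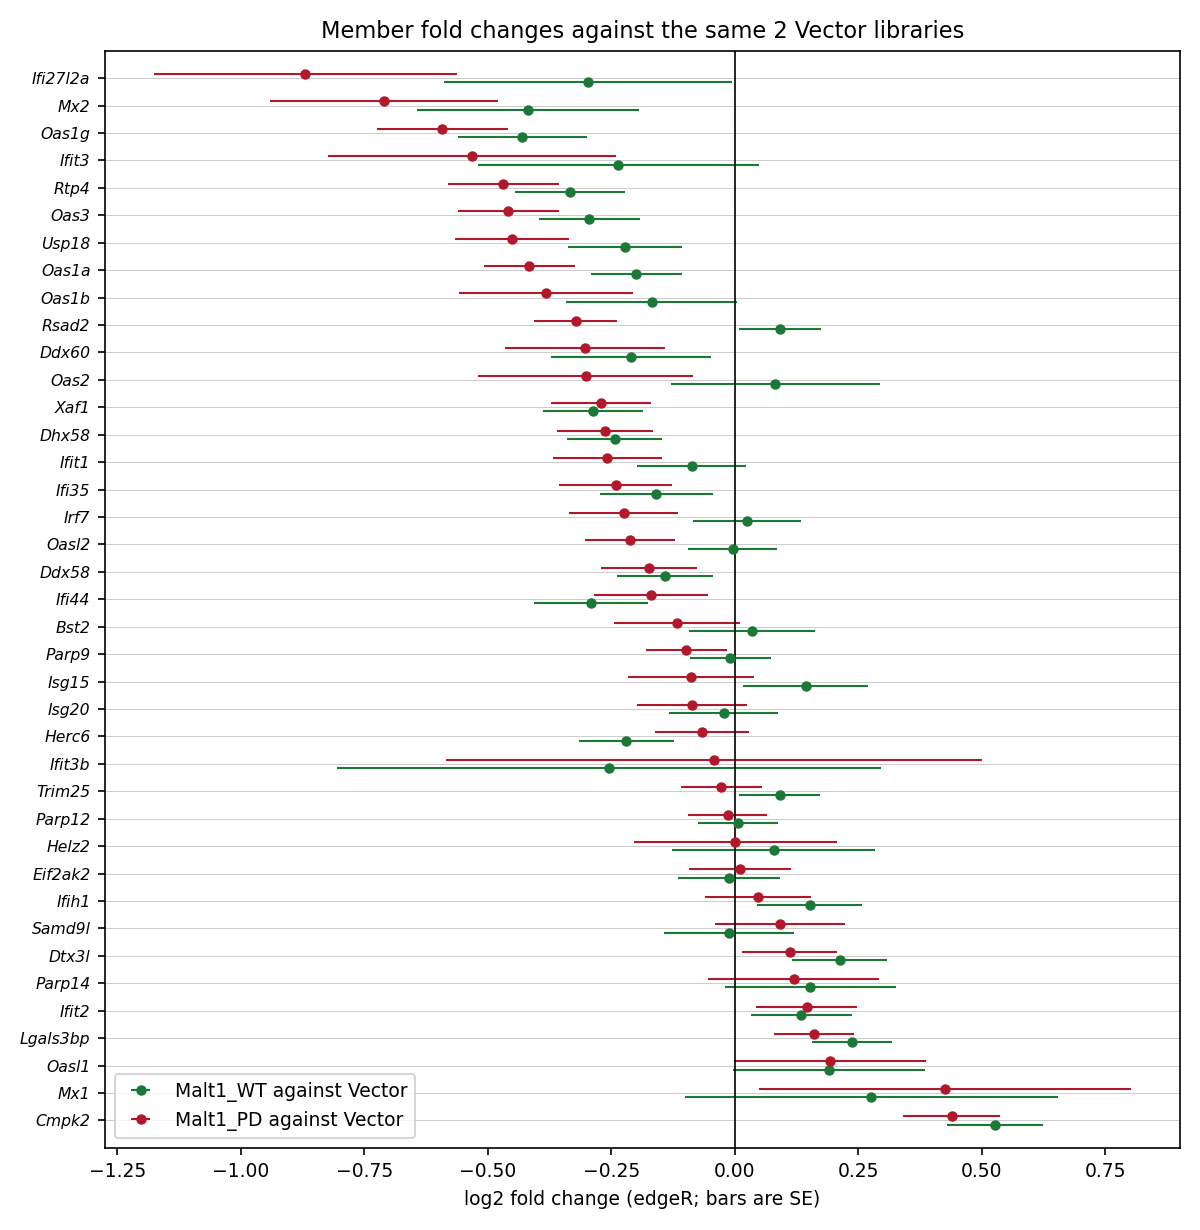
Log2 fold change of the 39 genes (horizontal axis, edgeR, bars are SE) in Malt1_WT and Malt1_PD, both against the same 2 Vector libraries and sorted by Malt1_PD. Most Malt1_PD points lie left of 0 (28 of 39), and Cmpk2 lies farthest right in both, at 0.53 and 0.44.

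The forms were then compared directly, Malt1_WT against Malt1_PD, which tests the difference that the fold changes against a shared Vector pair cannot. None of the 39 genes passed edgeR's threshold (0.00681% of all genes did, again 1 gene, Cd274), nor DESeq2's or limma-voom's. At an unadjusted p under 0.05, 2 members were higher in Malt1_WT and 0 lower, against 0.838% and 1.08% of all genes. Both Malt1_WT libraries lay above both Malt1_PD libraries for 21 of the 39, and below for 3, against 16.1% and 16.0% of all genes. The median log2 difference was 0.093 over the 39 and 0.0016 over all genes.

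Rsad2 had the second smallest p of all 14675 genes in this comparison, after Cd274. The Malt1_WT libraries had 61.4 and 58.6 CPM, against 45.4 and 44.6 CPM for Malt1_PD, a ratio of 1.33. The log2 difference was 0.41 ± 0.08, with a 95% interval of 0.22 to 0.61 before any adjustment, and the edgeR adjusted p was 1.00 (unadjusted p = 0.00113). Over 14 alternatives its value stayed between 0.38 and 0.45, with adjusted p from 0.000216 to 1.00. The fit past the threshold leaves out the libraries low on long genes. The next members were Oas1a (49.7 and 48.0 against 42.8 and 41.2 CPM, 0.22 ± 0.09), Oasl2 (0.21 ± 0.09) and Irf7, the factor that amplifies interferon production (0.25 ± 0.11). Their edgeR adjusted p was 1.00.

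Usp18 (0.23 ± 0.12), Ifi27l2a (0.57 ± 0.31), Isg15 (0.23 ± 0.13) and Oas2 (0.38 ± 0.22) completed the 8 members with the smallest p. Isg15 had 68.3 and 63.0 CPM for Malt1_WT, against 54.4 and 57.3 CPM for Malt1_PD. These do not overlap, with Malt1_WT higher, as in 16.1% of all genes. The Vector libraries of Isg15, at 67.0 and 51.8 CPM, spanned most of that range. Cmpk2 did not differ detectably between the forms, with a difference of 0.09 and a 95% interval of -0.14 to 0.31. Parp12, an ADP-ribosyltransferase gene, stood at 0.02.

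**Figure D5:**
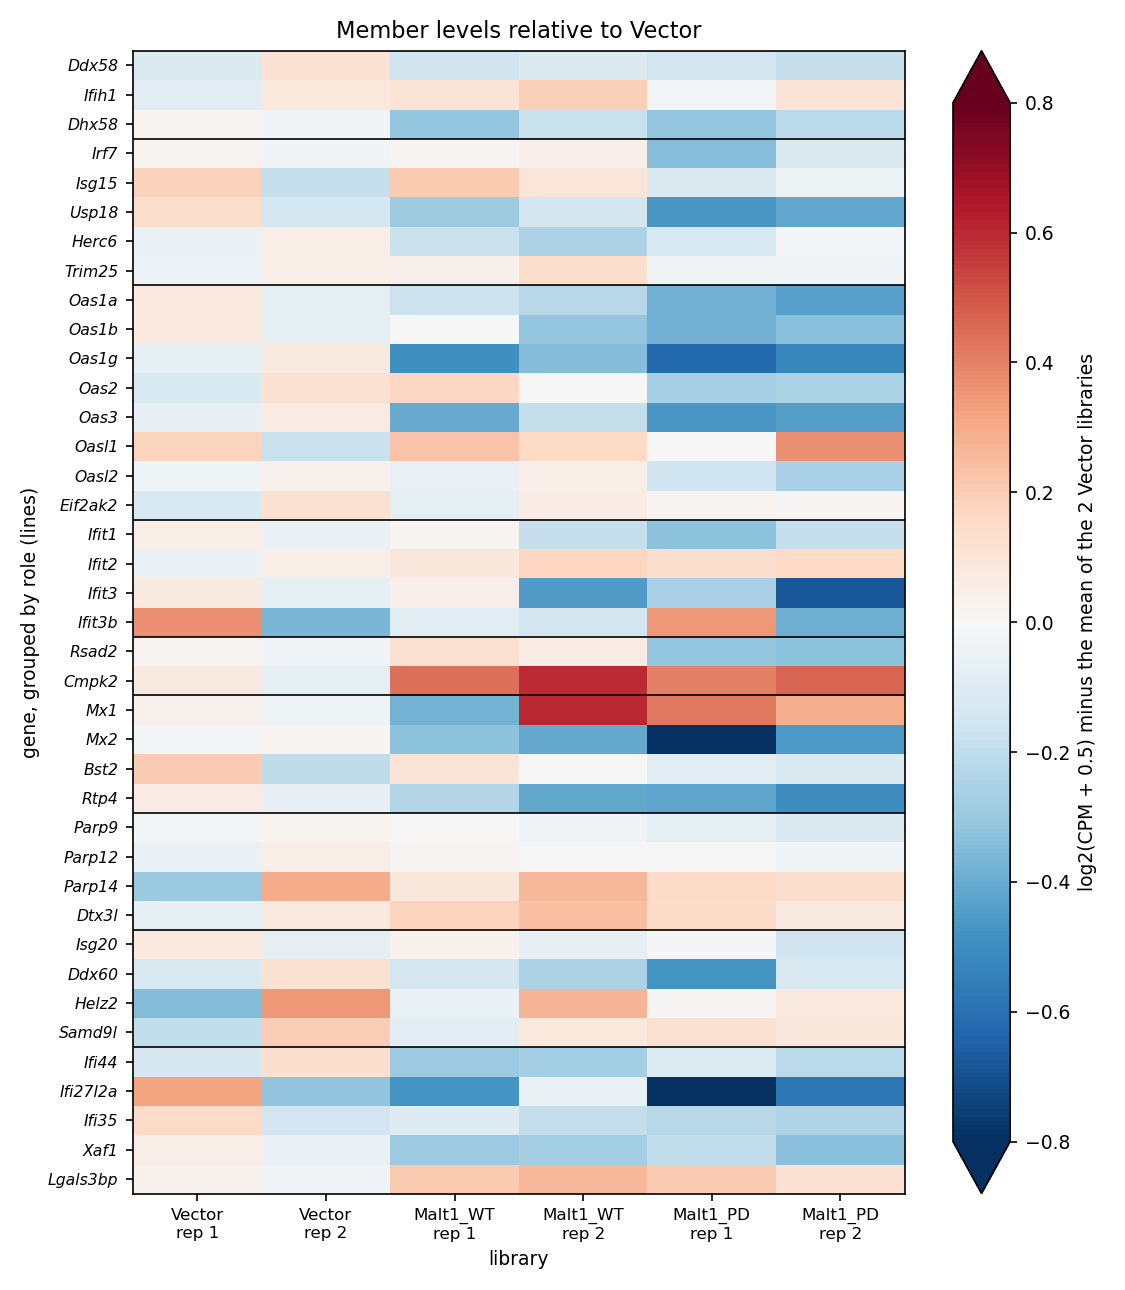
Log2(CPM + 0.5) of each gene minus the mean of its Vector libraries (colour, from blue below to red above 0) in the 6 libraries (columns), with genes grouped by role. Blue prevails in both Malt1_PD columns, where 21 and 23 of the 39 genes lie below both Vector libraries, and Cmpk2 is red in all 4 Malt1 columns.

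Counted by library, 21 genes of Malt1_PD replicate 1 and 23 of replicate 2 lay below both Vector libraries, with 5 and 6 above both. Of all genes tested, 29.8% and 29.6% lay below and 28.7% and 28.1% above in these libraries. In Malt1_WT replicate 1 and replicate 2, 15 and 16 lay below and 9 and 10 above, where 28.7% and 32.0% of all genes lay below and 28.6% and 29.0% above. The summed level of the 39 genes differed little, at 2032 and 2122 CPM for Vector, 2047 and 2127 CPM for Malt1_WT, 1966 and 1964 CPM for Malt1_PD. As bulk libraries, these values do not separate fewer responding cells from less RNA per cell.

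Genes upstream of the members were taken from a list of 32 interferon ligands, receptors, kinases, factors, sensors and feedback genes, of which 28 had counts and 24 were tested. In each comparison 0 of the 24 were called by edgeR, DESeq2 or limma-voom. At an unadjusted p under 0.05, 2 of the 24 were lower in Malt1_WT and 5 in Malt1_PD against Vector, where 3.80% and 4.88% of all genes were, and 0 were higher. Their median log2 fold changes were -0.09, -0.10 and 0.02. In Malt1_WT and Malt1_PD against Vector, 18 and 19 of the 24 lay below 0, where 50.3% of all genes did in each. Ifnb1, the gene of interferon beta, had 7 and 0 counts for Vector, 0 and 1 for Malt1_WT, 0 and 1 for Malt1_PD. The receptor gene Ifnar1 had 43.1 and 48.5 CPM for Vector, 42.4 and 42.4 CPM for Malt1_WT, 42.3 and 40.6 CPM for Malt1_PD. Stat2 and Irf9, which encode parts of the complex that binds the ISRE, stood at -0.08 ± 0.10 and -0.10 ± 0.08 in Malt1_PD against Vector.

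Sensing and feedback genes of that list also had the smallest p-values against Vector. Tmem173, the gene of the DNA-sensing adaptor STING, had 42.3 and 41.2 CPM for Vector, 30.5 and 33.7 CPM for Malt1_WT, 33.6 and 29.8 CPM for Malt1_PD. Its log2 fold changes were -0.38 ± 0.10 and -0.40 ± 0.10 (edgeR adjusted p = 0.454 and 0.369). Ikbke, the gene of a kinase that activates IRF3 and IRF7, stood at -0.29 ± 0.09 in Malt1_WT and -0.35 ± 0.10 in Malt1_PD against Vector. Socs3, a feedback inhibitor of JAK kinases, stood at -0.30 ± 0.07 in Malt1_PD. Irf5 and Ptpn6 stood at -0.40 ± 0.18 and -0.28 ± 0.14 in Malt1_WT. Between the forms, Socs3 stood at 0.17 ± 0.07, Zbp1, a nucleic acid sensor gene, at -0.26 ± 0.18 and Irf2 at 0.12 ± 0.09.

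Of 62 further interferon-stimulated genes outside the 39, 56 were tested, and 0 were called by edgeR, DESeq2 or limma-voom in each comparison. At an unadjusted p under 0.05, 5 of the 56 were lower in Malt1_WT and 9 in Malt1_PD against Vector, and 0 were higher, where 3.80% and 4.88% of all genes were lower and 3.30% and 3.73% higher. Their medians were -0.02 in Malt1_WT and -0.09 in Malt1_PD against Vector, and 0.05 between the forms. Against Vector, 32 and 44 of the 56 lay below 0, where 50.3% of all genes did in each. The smallest p-values belonged to genes of the PYHIN family of nucleic acid binding proteins. Ifi205 had 7.43 and 7.56 CPM for Vector, 3.20 and 3.59 CPM for Malt1_WT, 4.18 and 2.85 CPM for Malt1_PD. Its log2 fold changes were -1.13 ± 0.23 and -1.10 ± 0.23 (edgeR adjusted p = 0.268 and 0.249). Ifi204 stood at -0.37 ± 0.09 and -0.34 ± 0.09, Ifi203 at -0.48 ± 0.13 and -0.54 ± 0.13, and Mndal at -0.43 ± 0.17 and -0.51 ± 0.17. These genes have close copies and were named for their small p. All 4 had both libraries of each Malt1 form below both Vector libraries. Of all genes, 17.1% were so in Malt1_WT and 19.7% in Malt1_PD, each against the same Vector pair. Between the forms, Slfn5 stood at 0.53 ± 0.20, Tdrd7 at 0.22 ± 0.09 and Tor3a at 0.20 ± 0.09.

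Genes of the interferon-gamma response, 30 tested of 38, had medians of -0.05 and -0.07 in Malt1_WT and Malt1_PD against Vector, and 0.05 between the forms. Of the 30, 16 and 24 lay below 0 against Vector, where 50.3% of all genes did in each. Cd274, the gene of PD-L1, was the 1 gene of the list that edgeR, DESeq2 and limma-voom called, higher in Malt1_WT against Vector and against Malt1_PD, with 469 and 545 CPM in Malt1_WT against 4.22 and 4.37 CPM in Vector and 4.87 and 3.57 CPM in Malt1_PD. Cxcl10, a T cell chemokine gene, stood at -0.37 ± 0.14 and -0.42 ± 0.14 against Vector. Nos2, the gene of inducible nitric oxide synthase, stood at -0.37 ± 0.11 in Malt1_PD (edgeR adjusted p = 0.403). Gbp9, a guanylate-binding protein gene with near copies, stood at 0.53 ± 0.29 in Malt1_WT and 0.79 ± 0.29 in Malt1_PD against Vector. Its relative Gbp6 stood at 0.56 ± 0.25 in Malt1_WT against Vector and 0.41 ± 0.25 between the forms.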

How the data were processed

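RNA was isolated with RNAiso Plus, and stranded paired-end libraries were sequenced on a NovaSeq, per the labels' protocols. The authors deposited whole-number counts per gene, not normalised, with gene lengths. The submitters' processing notes list Trim Galore 0.6.0, STAR 2.7.3a, featureCounts 1.6.3 and the build GRCm38.p6. Whether counting used strand is not given in the sources used here. The deposited lengths equal the exon bases of GENCODE M21 for 39 of the 39 genes, and gene positions come from that release. The table's 6 other per-sample columns were not used.

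A single model over all 6 libraries, with a mean per group, was fitted to the counts of 14675 genes by edgeR 4.0.16 under R 4.3.3 (filterByExpr, TMM, glmQLFit, glmQLFTest). Adjustment was by Benjamini-Hochberg over these genes, with calls under 0.05, and SE derive from the F statistic. DESeq2 1.42.0 and limma 3.58.1 (voom) were alternatives, beside other size factors, no filter, only the groups compared, a replicate block, a length correction and left-out libraries. The fit was tested on simulated data. The libraries of a group differed by more than sampling noise (chi-square per degree of freedom of at least 7.39).

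The members and lists were chosen with earlier results of these data known. In each comparison the 8 members with the smallest p were named, others with their families, and of each list those with the 4 smallest p, except for 1 listed gene that is not reported here. The floor of 3 counts covers counting error only.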

Additional observations from a re-analysis of the deposited data

How the results depend on the processing

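Members called went from 0 to 1 (Malt1_WT against Vector) and 3 (Malt1_PD against Vector) with no low-count filter, and to 1 and 1 with the length trend removed. Against Vector, leaving out either Vector library raised the number of members called, from a Vector group of 1 library. The number of all genes called rose too, so these calls are not counted here. With Vector replicate 1 and Malt1_WT replicate 1 both left out, an alternative chosen after seeing the data whose spread comes from the Malt1_PD pair alone, 7, 12 and 4 members were called in Malt1_WT against Vector, Malt1_PD against Vector and Malt1_WT against Malt1_PD. Helz2 then lay at -0.30 in Malt1_PD against Vector, past the threshold and opposite in sign to 0.0011. Its cause was not tested. Of all genes, 113, 188 and 12 were called with no filter, 28 and 42 against Vector by DESeq2, and 39 and 73 with the length trend removed. Leaving out each library gave 1 to 599 and 0 to 928, with 50 and 111 without Vector replicate 1 and 0 in Malt1_PD against Vector without either Malt1_PD library. Without both libraries low on long genes, 936, 2080 and 358 were called. The replicate block gave 6 and 9 against Vector, with 0 members. The replicate numbers pair no samples by the labels, and replicate 1 deviations correlated at 0.69 between Vector and Malt1_WT but at -0.01 and 0.03 with Malt1_PD. The median over the 39 genes in Malt1_PD against Vector stayed between -0.20 and -0.12 under the 14 alternatives. Members with few counts had wide SE: in Malt1_PD against Vector, 0.54 for Ifit3b, at 10 to 24 counts per library, and 0.38 for Mx1. The Malt1_WT libraries of Mx1, which enter the same fit, had 22 and 72 counts. What part depth and replicate spread have in these SE was not tested.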
